A study of Ovis aries with 36 samples.

Results

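The slow troponins TNNT1, TNNC1 and TNNI1 were followed across 9 skeletal muscles of 4 lambs. The 3 genes were chosen by name and identified by the span of their loci, and they are 3 of 31136 loci counted in the series. RNA-Seq was performed on total RNA of 36 samples, with every muscle taken from every animal, so that each muscle had 4 samples and muscles could be compared within animals. The animals were unrelated male Poll Dorset crosses, slaughtered at an age of 14 months and a live weight of 67 to 72 kg after feeding on soy crop and a supplement of grain sorghum, and no group received a treatment. Samples were cut from the superficial middle part of the muscle belly, so a value describes that site and not the whole muscle. The muscles were psoas major (PM) and longissimus lumborum (LL) of the loin, supraspinatus (SS) of the shoulder, and from the hip and thigh gluteus medius (GM), gluteobiceps (GB), rectus femoris (RF), adductor (AD), semitendinosus (ST) and semimembranosus (SM).

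Troponin is the calcium switch of the thin filament of striated muscle. Its T subunit anchors the complex to tropomyosin, its C subunit binds calcium, and its I subunit holds back the interaction of actin with myosin until calcium arrives. Each subunit is made from separate genes in slow and fast fibres, and TNNT1, TNNC1 and TNNI1 encode the slow skeletal T, the slow skeletal and cardiac C, and the slow skeletal I subunit. Their transcripts are used as markers of slow oxidative (type I) fibres. In pieces of whole muscle, fewer slow fibres and less troponin RNA per slow fibre cannot be told apart.

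The 3 genes lie on different chromosomes of the sheep genome (Oar_v3.1). TNNT1 (ENSOARG00000001823) spans chr14:59547242-59556889, TNNC1 (ENSOARG00000004312) spans chr19:48403558-48406316 and TNNI1 (ENSOARG00000018755) spans chr12:78585640-78596742. Counts were summed over the exons of a whole locus, so isoforms of a gene were not separated. TNNT1 received 27303 counts over the 36 samples, between 63 and 1746 in a sample. TNNC1 received 32333 counts, between 73 and 2393 in a sample. TNNI1 was the least covered with 6281 counts, between 11 and 458 in a sample, so its low values carry the largest counting error. On the TNNI1 span, 2 further assembled loci without an Ensembl gene held 63 and 31 counts in all. In the RefSeq annotation of another sheep assembly (ARS-UI_Ramb_v3.0), TNNT1 neighbours the cardiac gene TNNI3, TNNC1 lies between NISCH and SEMA3G, and TNNI1 between PHLDA3 and LAD1.

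The PCR primers that the study designed for TNNT1 and TNNC1 are shown because they are the oligonucleotides by which these transcripts were recognised outside of sequencing; PCR values were not analysed here, and capitals are not used because no base is singled out.
TNNT1 forward primer: gaaagaggaagaggagctggt
TNNT1 reverse primer: ggttctgaagcgctgttgttc
TNNC1 forward primer: aggagatgattgacgaggtgg
TNNC1 reverse primer: cttcatgcagcgaaccatcat

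Total counts ranged from 3699148 to 6427422 per sample, with a median of 5905902. The 4 largest loci took between 65.7 and 78.3% of the counts of a sample, which left 1009232 to 2151731 counts for all others. In ST this share was 71.7 to 75.1%, in SS 67.2 to 73.5% and in PM 69.3 to 70.5%. With library sizes computed without these 4 loci, each of the 3 slow troponins stayed called in ST against SS and in ST against PM. Levels are given below as CPM, which are counts scaled to a common library size after TMM normalization, and a count of 3 corresponded to 0.365 to 1.02 CPM, below every value of the 3 genes. Markers of fibroblasts, fat, vessels, nerve, blood and heart could not be matched to loci, so the share of other cells in the samples was not examined. A difference was called at a false discovery rate (FDR) of at most 0.01 and an absolute log2 fold change (log2FC) above 1, in edgeR's quasi-likelihood test, Benjamini-Hochberg adjusted over 12461 loci.

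TNNT1, the tropomyosin-binding subunit, was highest in PM and SS and lowest in ST. Its level in PM was 244, 271, 274 and 231 CPM in animals 1, 2, 3 and 4, and values below keep this order of animals. In SS it was 172, 183, 261 and 281 CPM. GB followed with 131, 177, 193 and 213 CPM. The samples of SS thus overlapped those of PM and those of GB, while every PM sample lay above every GB sample. The GB sample of animal 1 was at the bottom. Further down, TNNT1 measured 93.1, 113, 153 and 141 CPM in AD and 125, 118, 159 and 81.1 CPM in GM. SM held 114, 44.3, 151 and 104 CPM. RF gave 56.8, 73.2, 77.7 and 134 CPM. These 4 muscles overlapped one another, and SM spread widely, with animal 2 far below the other animals in CPM. LL spread more widely still, with 68.1, 118, 81.1 and 27.3 CPM. All ST samples were low, at 16.7, 19.6, 23.6 and 32.6 CPM. The LL sample of animal 4 fell inside the ST range, and it was the only sample of another muscle to do so. Mean TNNT1 was 255 ± 20.8 CPM in PM, 224 ± 54.5 in SS, 178 ± 35.1 in GB, 73.7 ± 37.6 in LL and 23.1 ± 6.93 in ST (SD, n = 4 each), a range of 11.03-fold from PM to ST.

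TNNC1, the calcium-binding subunit, kept the same order of 9 muscle means as TNNT1. In PM it was 229, 372, 418 and 293 CPM, and in SS 211, 232, 361 and 284 CPM. GB held 145, 233, 248 and 225 CPM. Animal 1 was the lowest animal in each of these 3 muscles. In the middle of the order, AD measured 123, 119, 169 and 168 CPM, GM 139, 143, 173 and 70.1 CPM, SM 138, 60.9, 170 and 100.4 CPM, and RF 48.7, 79.9, 109 and 144 CPM. The low GM value was that of animal 4 and the low SM value that of animal 2, the samples in which TNNT1 was also low. LL ranged widely again with 52.7, 141, 89.2 and 34.4 CPM. ST stayed at 19.4, 26.6, 29.8 and 38.0 CPM, and again only the LL sample of animal 4 lay within the ST range. Means were 328 ± 83.8 CPM in PM, 272 ± 67.0 in SS, 213 ± 46.1 in GB, 79.2 ± 46.8 in LL and 28.5 ± 7.72 in ST (SD, n = 4 each), a range of 11.54-fold.

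TNNI1, the inhibitory subunit, had the same 5 highest muscles in the same order, while RF and SM changed places. PM held 56.4, 71.2, 72.8 and 56.5 CPM, and SS 43.2, 44.4, 75.1 and 76.7 CPM. In GB it was 19.6, 27.2, 48.1 and 41.9 CPM, so that SS and GB overlapped only through animals 1 and 2 of SS and animal 3 of GB. AD measured 23.4, 24.97, 36.6 and 30.5 CPM, and GM 21.3, 25.5, 31.1 and 16.4 CPM. RF held 8.87, 15.3, 31.8 and 37.4 CPM, and SM 17.02, 7.64, 31.2 and 16.9 CPM. LL gave 10.4, 33.3, 16.2 and 6.51 CPM. In ST the values were 2.92, 3.05, 6.10 and 10.3 CPM, which rest on 11, 14, 37 and 48 counts. The ST value of animal 4 exceeded the lowest values of RF, SM and LL, so the lower end of the order was less sharply separated for TNNI1 than for the other subunits. Means ran from 64.2 ± 9.00 CPM in PM and 59.8 ± 18.5 in SS to 16.6 ± 11.8 in LL and 5.59 ± 3.47 in ST (SD, n = 4 each), a range of 11.48-fold.

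**Figure D1:**
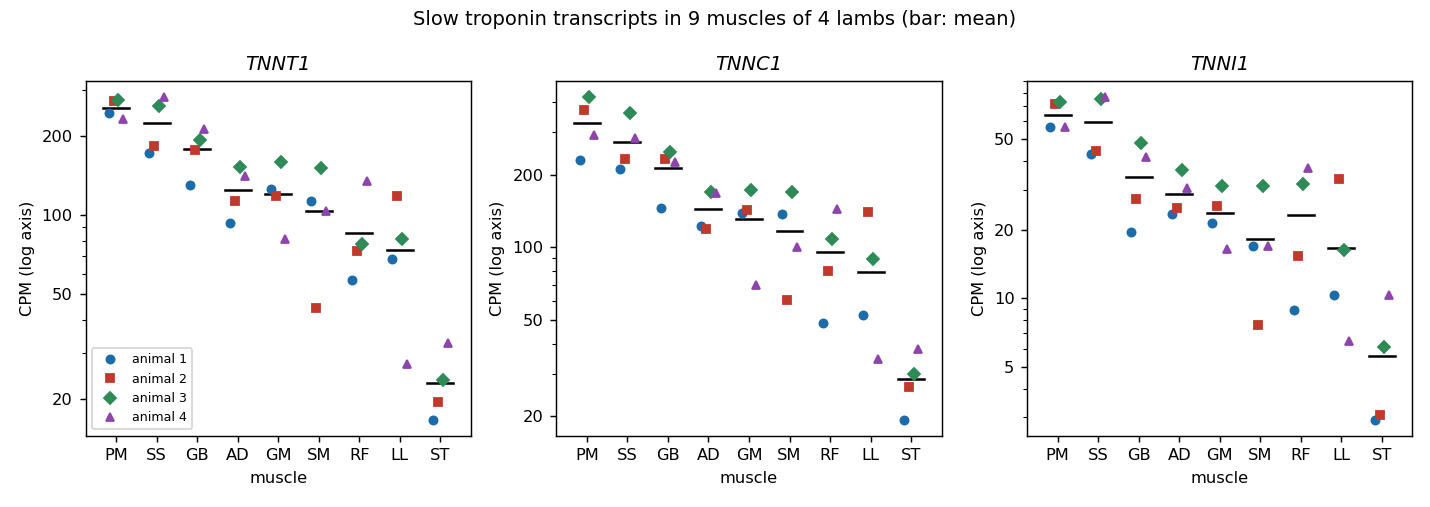
CPM of each slow troponin on a log axis in the 9 muscles, ordered by mean TNNT1, with 1 point for each of the 4 animals and a bar at the mean. ST lies lowest in each panel, PM and SS lie highest, and LL spreads over more of the axis than PM, with the LL triangle of animal 4 at the level of ST.

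The joint test of the 9 muscles, with animal in the model, called each of the 3 genes. The FDR was 5.00e-06 for TNNT1, 3.23e-06 for TNNC1 and 6.30e-05 for TNNI1 (edgeR's quasi-likelihood test, Benjamini-Hochberg adjusted). In the same test 9.73% of all loci were called, and the 3 genes ranked 112, 93 and 217 by p-value. The TNNI1 call was lost without animal 3 (FDR 0.014), while TNNT1 and TNNC1 stayed called without any 1 animal. Muscle accounted for 83.7% of the variance of log2 CPM of TNNT1, 82.7% for TNNC1 and 76.2% for TNNI1, against 28.7% for the median locus. Animal accounted for 2.31, 4.57 and 7.54% respectively, against 15.4% for the median locus. The study lists all 3 genes among its most significant for ST against SS, from these same samples. A joint call and a large share of variance for muscle were therefore favoured by the choice of genes.

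Differences between animals did not pass the threshold for any of the 3 genes, at FDR 0.365 for TNNT1, 0.145 for TNNC1 and 0.0868 for TNNI1 (edgeR's quasi-likelihood test), with 17.6% of all loci called. Their unadjusted p-values in this edgeR test were 0.242, 0.0651 and 0.0318. Within animals the extremes mostly repeated. ST was the lowest of 9 muscles for each of the 3 genes in animals 1, 2 and 3, and in animal 4 LL was lowest and ST next. PM was the highest muscle for TNNC1 in 4 animals, for TNNT1 in animals 1, 2 and 3, and for TNNI1 in animals 1 and 2, with SS highest in the remaining cases. The ratio of the highest to the lowest muscle inside 1 animal was 10.3 to 14.6 for TNNT1, 8.51 to 14.0 for TNNC1 and 11.8 to 23.3 for TNNI1.

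Against the mean of the other 8 muscles, each of the 3 genes was lower in ST, at log2FC -2.54 for TNNT1, -2.43 for TNNC1 and -2.44 for TNNI1. All were called, with 1.51% of all loci called in that comparison, and each gene was lower in ST in 4 of 4 animals. The FDR was 6.44e-06, 1.02e-05 and 0.000182 (edgeR's quasi-likelihood test, Benjamini-Hochberg adjusted). SS was higher than the mean of the others by 1.15, 1.22 and 1.42 on the log2 scale, at FDR 0.00159, 0.000949 and 0.00126 in the edgeR test, where 1.33% of all loci were called. The study had listed these genes as lower in ST than in SS, so the calls in ST and in SS were favoured by the choice of genes. PM was higher by 1.39, 1.52 and 1.601, at FDR 0.000606, 0.000197 and 0.00116 in the edgeR test, where 0.297% of all loci were called. In both SS and PM each gene was higher in 4 of 4 animals. GB was higher in 4 of 4 animals too, by 0.78, 0.82 and 0.48, but passed neither the FDR nor the fold threshold (0.0562% of all loci called), and the other 5 muscles were not called.

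Several of these calls depended on 1 animal. Without animal 1 only the TNNT1 call in ST and the TNNC1 calls in ST and PM remained, and without animal 3 only the TNNT1 and TNNC1 calls in ST. The fold changes themselves moved little when any 1 animal was left out, from 1.05 to 1.53 in SS over the 3 genes, from 1.34 to 1.76 in PM and from -2.90 to -2.22 in ST.

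Of the 36 pairs of muscles, TNNT1 was called in 10, TNNC1 in 9 and TNNI1 in 8. Over all loci and pairs 0.739% of tests were called, and single pairs ranged from 0 to 3.01%. The 3 genes were called together in 6 pairs, none of them was called in 23, and 1 or 2 of them in 7. ST was a partner in 8 of the TNNT1 calls, 6 of the TNNC1 calls and 5 of the TNNI1 calls, and always held the lower level. Summed over the 8 pairs with ST, 0.866% of tests were called lower in ST. A lower level in ST was favoured by the choice of genes. The counts of pairs called for each gene fell to 5, 4 and 2 without animal 1 and to 3, 3 and 2 without animal 3. They rose to 13 for TNNT1 and TNNC1 without animal 4.

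ST was separated from PM most strongly, at log2FC -3.49 for TNNT1, -3.51 for TNNC1 and -3.59 for TNNI1. The mean difference of log2 CPM within the 4 animals was -3.48 ± 0.234, -3.51 ± 0.202 and -3.61 ± 0.439 (SE). The FDR was 7.99e-07, 8.03e-07 and 1.81e-05 (edgeR's quasi-likelihood test, Benjamini-Hochberg adjusted), with 1.69% of all loci called. The 3 genes were lower in ST in 4 of 4 animals. ST against SS is the pair for which the study singled out these genes, and its log2FC, -3.27, -3.25 and -3.43, was of similar size; 2.25% of all loci were called there. Against GB the log2FC was -2.95, -2.89 and -2.60, with 1.08% of all loci called, against AD -2.43, -2.35 and -2.40, with 1.6% called, and against GM -2.40, -2.22 and -2.13, with 2.21% called. All 3 genes passed in these 5 pairs.

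At the lower end of the order the 3 subunits parted in their calls, though not in direction. Against RF the log2FC of ST was -1.88 for TNNT1, -1.72 for TNNC1 and -2.01 for TNNI1, and only TNNT1 was called (FDR 0.00543, 0.0137 and 0.0275 in the edgeR test; 0.225% of all loci called). Against LL it was -1.71, -1.46 and -1.65, and again only TNNT1 was called (edgeR FDR 0.00340, 0.0132 and 0.0339; 1.49% of all loci called). In animal 4 each gene was higher in ST than in LL, so the TNNT1 call in that pair went with 3 of 4 animals. The mean ST-minus-LL difference of TNNT1 log2 CPM within the 4 animals was -1.52 ± 0.616 (SE). The FDR rests on 1 spread fitted over all muscles and does not measure the wider spread of LL. SM exceeded ST by 2.15, 2.05 and 1.69, called for TNNT1 and TNNC1 (edgeR FDR 0.000622, 0.00112 and 0.0360; 0.690% of all loci called). The TNNI1 fold against RF was larger than that of TNNT1 yet did not pass; whether the fold changes of the 3 genes differ is tested by their ratios below.

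Away from ST, calls involved PM or SS on the high side. SS exceeded LL by a log2FC of 1.56 for TNNT1, 1.79 for TNNC1 and 1.78 for TNNI1, higher in 4 of 4 animals, with all 3 genes called (edgeR FDR 0.00382, 0.00120 and 0.00835; 2.40% of all loci called). The mean difference of log2 CPM within the 4 animals was 1.75 ± 0.576, 1.94 ± 0.473 and 2.03 ± 0.631 (SE). LL was below PM by 1.77 for TNNT1 and 2.05 for TNNC1, both called, and the TNNI1 log2FC of -1.94 missed the threshold at FDR 0.0172 in the edgeR test (0.393% of all loci called). RF was called below PM for TNNC1 only, at log2FC -1.79 (0.345% of all loci called). TNNI1 alone was called in SM against SS, at -1.75, and in SM against PM, at -1.90 (3.01 and 1.11% of all loci called). For TNNT1 and TNNC1 the log2FC of SM was -1.12 and -1.19 against SS, and -1.33 and -1.45 against PM.

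**Figure D2:**
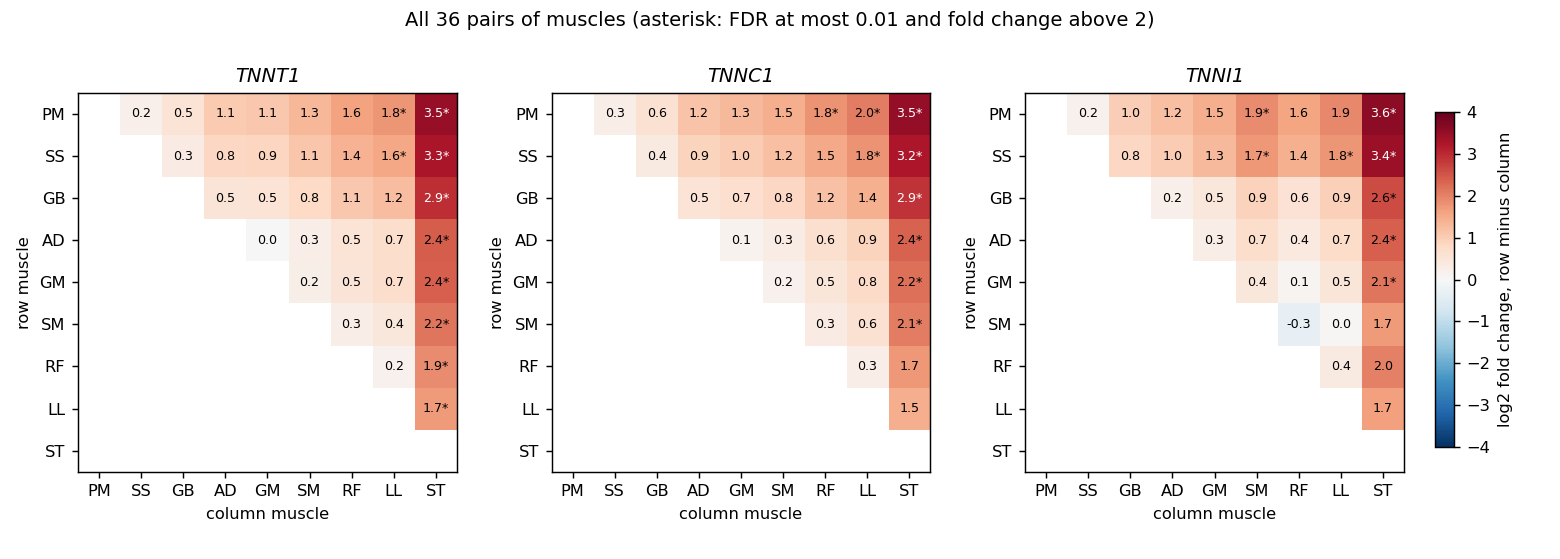
The log2 fold change of each slow troponin for the 36 pairs of muscles, row minus column, with muscles ordered by mean TNNT1 and an asterisk where FDR was at most 0.01 and the fold change above 2. The ST column is the darkest in each panel, from 1.71 (LL) to 3.49 (PM) for TNNT1. The cells near the diagonal are pale, which the ordering by mean favours.

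Neighbours in the order were, with 1 exception, not separated. Of the 24 neighbouring pairs, 8 for each gene, the samples overlapped in 24, and 1 was called, LL against ST for TNNT1. Over all loci, from 0% (GM against AD) to 1.49% (ST against LL) were called in such pairs. The order was set by the means of these same samples, so overlap and small differences between neighbours were favoured by the choice. In the 7 pairs without ST the largest log2FC between neighbours was 0.52 for TNNT1, 0.54 for TNNC1 and 0.83 for TNNI1, and the FDR lay between 0.374 and 0.987 in the edgeR test. PM and SS, at the top, differed by SS-minus-PM log2FC of -0.21 for TNNT1, -0.26 for TNNC1 and -0.16 for TNNI1, at FDR 0.807, 0.748 and 0.888 in the edgeR test, with 0.835% of all loci called. The mean SS-minus-PM difference of log2 CPM within the 4 animals was -0.21 ± 0.198, -0.26 ± 0.142 and -0.14 ± 0.244 (SE). In single animals the SS-minus-PM difference of log2 CPM ranged from -0.57 to 0.28 for TNNT1, from -0.68 to -0.04 for TNNC1 and from -0.68 to 0.44 for TNNI1. TNNC1 was thus lower in SS in 4 of 4 animals, TNNT1 in 3 and TNNI1 in 2.

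The spread between animals varied from muscle to muscle, as a description from 4 animals each. A difference in spread was not tested. PM was the most uniform muscle for TNNT1 and TNNI1, with coefficients of variation over 4 animals of 8.16 and 14.0%. For TNNC1 it was AD, with 19.1% against 25.5% in PM. LL was the least uniform for each gene, at 51.0% for TNNT1, 59.1% for TNNC1 and 71.3% for TNNI1. The highest LL animal exceeded the lowest 4.34-fold, 4.08-fold and 5.12-fold, and it was animal 2 over animal 4 each time. In SM the ratio was 3.42, 2.79 and 4.08, with animal 3 highest and animal 2 lowest. The TMM factors of SM were 0.666, 1.22, 0.682 and 0.995 in animals 1 to 4, and a larger factor lowers CPM. Animals 3 and 2 had 568 and 313 TNNT1 counts among totals of 5500924 and 5781359. The size of the SM ratios thus depends on the scaling. In RF the ratio was 2.37, 2.97 and 4.21, with animal 4 highest and animal 1 lowest. Animal 4 was thus the lowest in LL and the highest in RF, and animal 2 the highest in LL and the lowest in SM.

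The 3 transcripts moved together sample by sample. With log2 CPM centred on the animal, Pearson's r over the 36 samples was 0.986 between TNNT1 and TNNC1, 0.967 between TNNT1 and TNNI1, and 0.969 between TNNC1 and TNNI1. Among 12460 other loci, TNNC1 ranked 1 for TNNT1 and TNNT1 ranked 1 for TNNC1. TNNI1 ranked 4 for both, and in turn TNNC1 ranked 2 and TNNT1 ranked 3 for TNNI1. After muscle and animal means were both removed, r was still 0.918, 0.897 and 0.907 in the same order. Without the 4 LL samples these residual values were 0.900, 0.858 and 0.864 (n = 32). By the residual measure the members ranked between 1 and 4 for each other among 12460 loci. These correlations are descriptions, since samples of an animal share that animal and the 3 genes of a sample share its library, its depth and its piece of tissue.

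Samples far from their muscle mean lay on the same side for the 3 genes in the cases given here, though not always equally far. From its muscle mean the LL sample of animal 4 deviated by -1.24 (TNNT1), -0.998 (TNNC1) and -1.05 (TNNI1) on the log2 scale, and the LL sample of animal 2 by 0.86, 1.02 and 1.24. The SM sample of animal 2 lay at -1.09, -0.84 and -1.05, and the RF sample of animal 4 at 0.73, 0.71 and 0.88. TNNI1 went further than the other subunits in the RF sample of animal 1, at -0.51, -0.86 and -1.15, where it had its lowest deviation, and in the ST sample of animal 4, at 0.53, 0.45 and 1.02. With muscle and animal removed, the 3 genes deviated in the same direction in 22 of 36 samples.

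**Figure D3:**
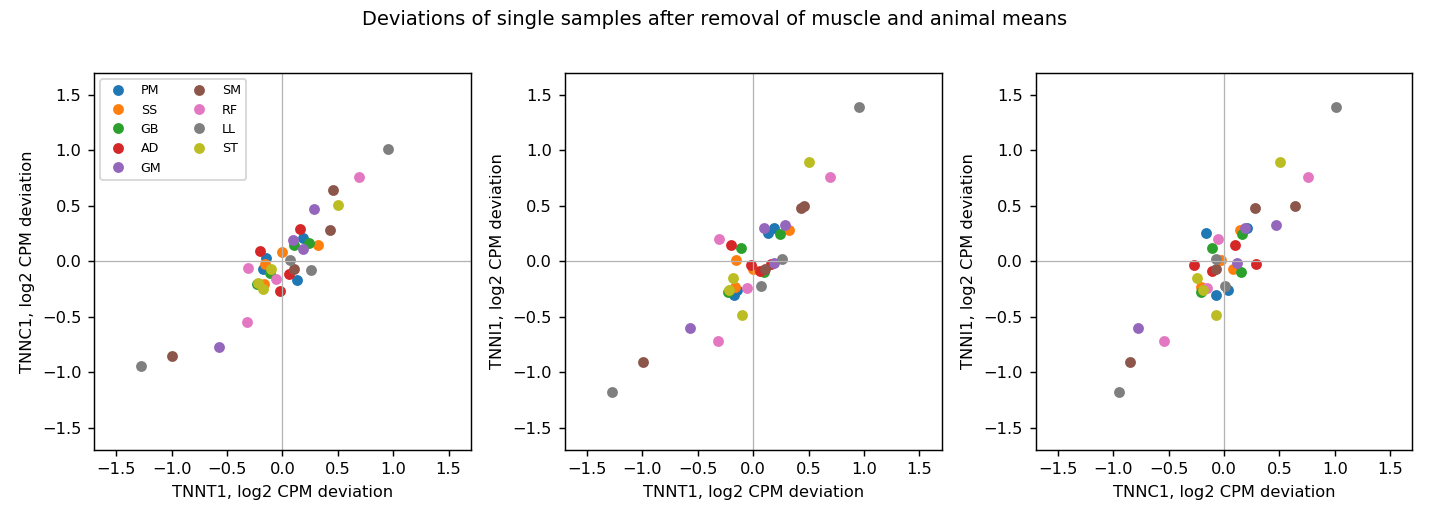
Residual log2 CPM of the 36 samples after muscle and animal means were removed, plotted for each pair of slow troponins and coloured by muscle. The points follow the diagonal, with r of 0.918, 0.897 and 0.907 from left to right, and 2 LL samples mark opposite ends.

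Ratios between the subunit transcripts were compared because gene length cancels when a ratio is set against the same ratio in another muscle. The log2 ratio of TNNT1 to TNNC1 had muscle means within 0.244 of each other, from -0.33 ± 0.300 in PM to -0.09 ± 0.208 in GM (SD, n = 4 each). A difference between muscles was not detected (permutation test within animals, one-sided by construction, p = 0.580, adjusted over 3 ratios 0.580). The log2 ratio of TNNT1 to TNNI1 ranged over 0.594, from 1.92 ± 0.111 in SS to 2.51 ± 0.191 in SM, with a permutation p of 0.0383 and an adjusted value of 0.0575. For TNNC1 to TNNI1 the range was 0.607, from 2.12 ± 0.317 in RF to 2.73 ± 0.279 in SM, with a permutation p of 0.0333 and an adjusted value of 0.0575. Both ratios to TNNI1 thus missed 0.05 after adjustment.

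In single samples of SM the TNNT1 to TNNI1 ratio lay between 2.27 and 2.71 and in SS between 1.79 and 2.04. These muscles had the highest and the lowest mean of this ratio, so that they did not overlap was favoured by the choice. RF covered 1.28 to 2.63 and ST 1.63 to 2.55, wider than SM and SS. Compared with the differences of more than 3 log2 units in level between PM and ST, the ratios of all pairs of subunits changed by less than 1 log2 unit between muscle means.

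**Figure D4:**
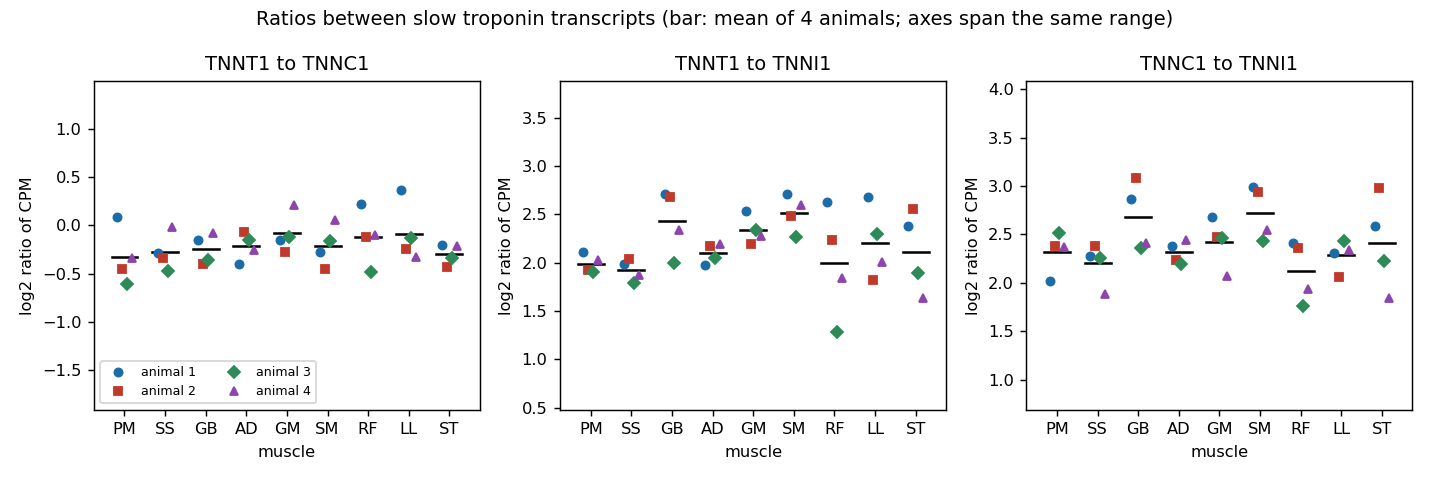
The log2 ratio of CPM for each pair of slow troponins in the 9 muscles, with 1 point per animal and a bar at the mean of 4 animals; the axes span the same range. Means of TNNT1 to TNNC1 stay within 0.244, and SM has the highest mean in both panels with TNNI1.

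Besides the slow troponins, 8 genes of the contractile apparatus and its regulation could be matched to a single tested locus. They were matched through positions that the study tabulated for genes differing between muscles of these samples, so their direction was largely fixed by the matching and is a description. Of 19 thin filament and troponin genes, TPM3, the slow tropomyosin, was the only one matched beside the 3 slow troponins. Of 17 slow fibre genes 6 were matched, and each of the 6 stands in the study's list for ST against SS, so that their being called higher in SS than in ST (6 of 6, with 2.25% of all loci called there in either direction) was set by that choice. They were TPM3, MYOZ2 (a Z-disc protein that binds calcineurin), MYL3 (the slow and ventricular essential myosin light chain), ATP2A2 (the slow fibre and cardiac calcium pump), CASQ2 (a calcium store protein of the sarcoplasmic reticulum) and MYOM3 (an M-band protein). Of 16 fast fibre genes only PVALB, a calcium buffer of fast fibres, was matched, and it was not called between ST and SS (log2FC 0.49, edgeR FDR 0.518). Of 26 regulators of the fibre type programme only EYA1, a transcriptional co-activator, was matched, and it was not called either (log2FC -1.11, edgeR FDR 0.0380). The fast troponins TNNT3, TNNC2 and TNNI2 could not be matched, so slow and fast subunits were not compared.

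PM and SS, which were not separated by the slow troponins, were compared for the matched genes after their values were seen. Of these, 3 were called, MYL3, PVALB and EYA1, where 0.835% of all loci were called. The matched genes had been listed by the study as differing between muscles, so this count is a description. MYL3, the only one of the 6 slow fibre genes called, had 57.3 ± 29.7 CPM in SS and 185 ± 19.9 in PM (SD, n = 4 each; edgeR FDR 0.00378), lower in SS in 4 of 4 animals. TPM3 was at 140 ± 44.5 CPM in SS and 217 ± 46.9 in PM, and was not called (edgeR FDR 0.142). ATP2A2 was close to equal at 404 ± 65.1 and 421 ± 85.6 CPM, with edgeR FDR 0.935. MYOZ2 was at 53.9 ± 14.1 and 33.3 ± 18.3 CPM, higher in SS in 4 of 4 animals but not called (edgeR FDR 0.130). CASQ2 and MYOM3 were not called (edgeR FDR 0.289 and 0.661). PVALB and EYA1 went the other way from MYL3, higher in SS in 4 of 4 animals. The study lists both as higher in SS than in SM, and their positions came from that list. A high level in SS was thus favoured by the matching. PVALB was at 5.63 ± 7.84 CPM in SS and 0.133 ± 0.158 in PM (SD, n = 4 each; edgeR FDR 1.61e-05), with the PM mean under the level of 3 counts. EYA1 was at 4.63 ± 1.04 CPM in SS and 1.52 ± 0.601 in PM (SD, n = 4 each; edgeR FDR 0.00550).

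The loci whose pattern was most like the mean of the 3 standardized slow troponins were ENSOARG00000019316 on chromosome 7 (r = 0.978), ENSOARG00000017646 on chromosome 17 (r = 0.967), TPM3 (r = 0.967), ATP2A2 (r = 0.953) and ENSOARG00000017779 on chromosome 17 (r = 0.952), over 36 samples centred on the animal. ENSOARG00000019316, to which no symbol was assigned here, had 2548 ± 593 CPM in SS, 2244 ± 468 in PM and 220 ± 73.8 in ST (SD, n = 4 each). The 2 loci on chromosome 17 share the span chr17:54257918-54303146, so reads may be split between them and they are not separate evidence. The study's list for ST against SS places CCDC63 and the slow fibre gene MYL2 in this span. MYL2 fell on 2 tested loci and was therefore not matched to a single one.

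**Figure D5:**
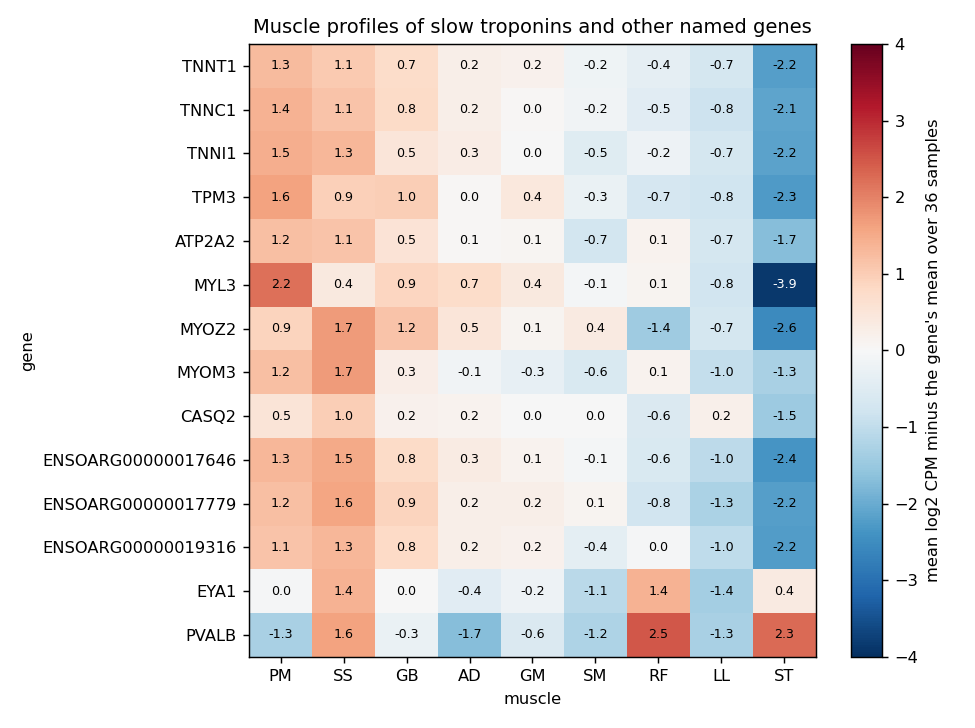
Mean log2 CPM in each muscle minus the mean of the gene over 36 samples, for the slow troponins, the other matched list genes and the most similar loci. The upper 12 genes are lowest in ST, as the way they were matched or picked favours, with MYL3 at -3.87, while EYA1 and PVALB follow other patterns and PVALB is highest in RF.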

How the data were processed

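Gene counts per locus were deposited for 36 samples. Per the labels and the study's methods, the authors sequenced 100 bp paired-end reads, aligned them to Oar_v3.1 with TopHat2 2.0.13, assembled loci with Cufflinks 2.2.1 beside the Ensembl annotation, and obtained raw counts with HTSeq, which by default leaves out reads that fall in several loci. The strand setting was not given in the sources used here, so overlapping loci cannot be told apart by strand. Of 31530 entries, 31136 were separate loci. Loci were named only by their Ensembl identifier or by positions in the study's tables, so fast troponins, cell markers and most list genes were not analysed here.

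Counts were filtered with filterByExpr (12461 loci), TMM-normalized and fitted in edgeR 4.0.16 (R 4.3.3, robust quasi-likelihood) with muscle and animal as terms over all 36 samples. The animal term follows the design, since same-numbered samples come from the same animal; their deviations from muscle means correlated at a mean r of 0.236. The robust fit gave TNNT1, TNNC1 and TNNI1 a prior of 1.08, 1.06 and 0.311 degrees of freedom for their spread, against a median of 18.8 over loci, so their tests rest mostly on their own spread. Log2 CPM used a prior count of 2. Fold changes are from the fit. No 2 samples of a muscle agreed within sampling noise (chi-square per degree of freedom 5.12 to 34.7 over 54 pairs), and the common biological coefficient of variation was 0.195. Ratios were tested by permuting muscle labels within animals 100000 times (NumPy 2.4.6). The code was tested on simulated data. Alternatives included DESeq2 1.42.0, a likelihood ratio test, other scalings and filters, and leaving out each animal. Named genes were the 3 slow troponins, every matched gene of the 4 lists of contractile and regulatory genes, and the 5 most similar loci. The members and lists were chosen with earlier results of these data known.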

Additional observations from a re-analysis of the deposited data

How the results depend on the processing

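ST against SS and ST against PM kept their direction and stayed called for each of the 3 genes under 13 alternatives. The SS-minus-PM difference of TNNI1, never called, changed sign to 0.0048 without animal 2, and without 1 animal it ranged down to -0.364. The count of pairs called was sensitive. For TNNT1, TNNC1 and TNNI1 it was 14, 15 and 13 at an FDR of 0.05. It was 15, 15 and 13 with the likelihood ratio test and 15, 16 and 13 with DESeq2. When each pair was fitted on its 8 samples it was 14, 14 and 12. Without robust estimation (chosen after seeing the data) it was 12, 15 and 12. Without the replicate block TNNI1 was called in 4 pairs, TNNC1 in 8 and TNNT1 in 10, and the joint tests and the muscles called against the other 8 kept their side of the threshold. Leaving out 1 animal gave 3 to 13 pairs for TNNT1, 3 to 13 for TNNC1 and 2 to 7 for TNNI1, with the low counts without animal 1 or 3. It gave joint FDRs of 7.8e-05 to 0.014 for TNNI1. Of the 3 muscles called against the other 8, 1 to 3 remained for TNNT1 and TNNC1 and 0 to 3 for TNNI1, while the log2FC ranged from -2.90 to -2.22 for TNNI1 in ST, from 1.05 to 1.21, 1.16 to 1.30 and 1.35 to 1.53 for TNNT1, TNNC1 and TNNI1 in SS, and from 1.34 to 1.49, 1.46 to 1.59 and 1.504 to 1.76 in PM. The cause was not tested. With a prior count of 5 both ratios to TNNI1 passed 0.05 (adjusted permutation p 0.038 each). The likelihood ratio test called 1 regulator, EYA1, higher in SS against 0 otherwise. Ratios of slow to fast troponins were not run, since the fast genes could not be matched. With 11 to 48 counts of TNNI1 in ST, depth limits its lowest values.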
